A study of Mus musculus with 2 samples.

Results

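The genes described here build ribosomes. They comprise 34 genes of ribosome biogenesis and the nucleolus, chosen by symbol from a fixed list, and all 34 had at least 20 UMIs (unique molecular identifiers, each standing for 1 captured transcript) over the libraries of the study. They belong to 31053 genes in the files, of which 13757 reached that limit. By role, 3 are nucleolar scaffold proteins, 4 belong to box C/D and 4 to box H/ACA small nucleolar ribonucleoproteins, 2 are RNA polymerase I subunits, 10 act on the small subunit and 11 on the large subunit.

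Ribosomal RNA is transcribed by RNA polymerase I in the nucleolus. Box C/D particles guide its methylation and box H/ACA particles its pseudouridylation, while large assemblies of processing factors cleave it and fold it with ribosomal proteins into the small and the large subunit. Dividing crypt cells of the intestine have a high demand for ribosomes, and the transcription factor Myc, itself induced by Wnt signalling in the crypt, is known to activate many of these genes.

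Jejunal cells had been sorted as GFP+ from Lgr5-eGFP-IRES-CreER animals, in which GFP is made where the stem cell gene Lgr5 is expressed, and captured for 3' droplet sequencing. One group was labelled Fc control and the other FZD5/8 antagonist, named for the Wnt receptors FZD5 and FZD8, and both groups carried the allele. Each condition had 3 mice, labelled female and aged 10 to 12 weeks, and 1 library in which no cell is tied to a mouse, and neither the dose nor the length of treatment is known here. Since a group is 1 library, no replicate and no test was possible. Every interval below covers 95% of counting error only, and a difference between libraries cannot be told apart from a difference between conditions.

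After filters, 11263 control cells (66206242 UMIs, median 4478 per cell) and 11019 antagonist cells (54328008 UMIs, median 2732) remained. The libraries stood apart in several ways besides treatment. Levels are given as UMIs per 1000000 UMIs of the library or gate (CPM). Xist was at 1.33 CPM in the control and 512 in the antagonist library, and 4 Y-linked genes summed to 106 and 5.60 CPM, which goes against the female label of the control library, so that sex cannot be told apart from treatment. Cells with more than 20000 UMIs were 2.24% of control cells with 13.1% of the UMIs, and 3.31% of antagonist cells with 31.9% of the UMIs, and 271 of these 365 antagonist cells carried G2 and M markers. The libraries shared 145 cell barcodes, which held 2.78% of the UMIs of kept control cells and 12.3% of those of kept antagonist cells. Lgr5, the marker of the sort, was at 66.2 and 3.09 CPM, immune markers summed to 28.9 and 8.26 CPM, and stromal and endothelial markers to 22 and 8 UMIs.

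Myc and its partner Max bind the E-box CACGTG, and its occurrence close to the start sites was therefore read from RefSeq promoter windows (GRCm38.p6, 250 bases before to 50 after each start). Windows were found for 29 of the 34 genes, without Npm1, Fbl, Rrp12, Rrs1 and Bop1. The motif, which reads the same on both strands, was present in 6 of the 29 genes (20.7%), against 8.09% of all 27025 genes with a window and 18.75% of the other biogenesis genes examined below. The 6 genes with the motif are shown over 30 bases in the direction of transcription, with the E-box in capitals.
Imp4: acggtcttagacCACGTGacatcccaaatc
Ltv1: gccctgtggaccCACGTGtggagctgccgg
Pes1: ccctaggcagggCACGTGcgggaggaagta
Tsr1: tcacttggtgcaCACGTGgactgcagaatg
Utp20: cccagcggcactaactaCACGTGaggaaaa
Wdr43: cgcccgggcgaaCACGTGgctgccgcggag
The stretches lie at chr1:34439696-34439725 on the plus strand for Imp4, chr10:13193092-13193121 on the minus strand for Ltv1, chr11:3963965-3963994 on the plus strand for Pes1, chr11:74898092-74898121 on the plus strand for Tsr1, chr10:88826765-88826794 on the minus strand for Utp20 and chr17:71616220-71616249 on the plus strand for Wdr43. The Imp4 motif began 121 bases before the start site. The others began 2 bases after it for Pes1, 17 for Wdr43, 24 for Tsr1, 28 for Ltv1 and 37 for Utp20. Imp4, Utp20 and Wdr43 act in the small subunit processome, Tsr1 and Ltv1 in late small subunit maturation, and Pes1 in the large subunit. A match is a description of the sequence and says nothing of binding in these cells.

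Over all cells, the summed level of the 34 genes was 5324 CPM (5306 to 5341) in the control library and 4766 CPM (4748 to 4785) in the antagonist library. Without Npm1 and Ncl the sums lay closer, at 3142 and 3094 CPM. Nop10, which was higher in the antagonist library (664 and 785 CPM), remains in these sums. Of the 34 genes, 25 were lower and 9 higher in the antagonist library, with counting intervals wholly below equality for 22 (64.7%) and wholly above it for 8 (23.5%). Of all 13757 genes measured, 65.2% were lower, and the interval lay wholly below equality for 46.3% and wholly above it for 22.3%. None of the 34 was lower and none higher by 1.5-fold, a size reached downward by 19.3% and upward by 6.5% of all genes. Here and below, the shares of all genes are not matched for level. They include genes with as few as 20 UMIs, whereas Rrp12, the member with the fewest, had 897. With many UMIs an interval clears equality at a smaller difference, and counting error alone carries fewer genes past 1.5-fold. The median log2 ratio of antagonist to control was -0.16, and that of all genes was -0.15. Without cells of more than 20000 UMIs the median of the 34 genes was -0.33 and that of all genes -0.20. Of the 34, 28 were lower, against 67.8% of all genes. By 1.5-fold, 1 of the 34 was lower and none higher, against 21.6% of all genes lower and 6.76% higher. Without the shared barcodes, the median was -0.28 for the 34 genes and -0.19 for all genes. Over 11 alternative settings, 13 genes were lower in each and 6 higher in each, while the other 15 changed sign in at least 1. With the marker gates described further on weighted as in the control library, 7 of the 25 lower genes (Polr1a, Polr1b, Utp20, Noc2l, Gnl3, Nip7 and Tsr1) came to ratios from 1.002 to 1.10. That setting gives the stem-marker-high gate the 32.8% of UMIs it has in the control, from 230 antagonist cells that hold 1.003% of their library's UMIs.

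**Figure D1:**
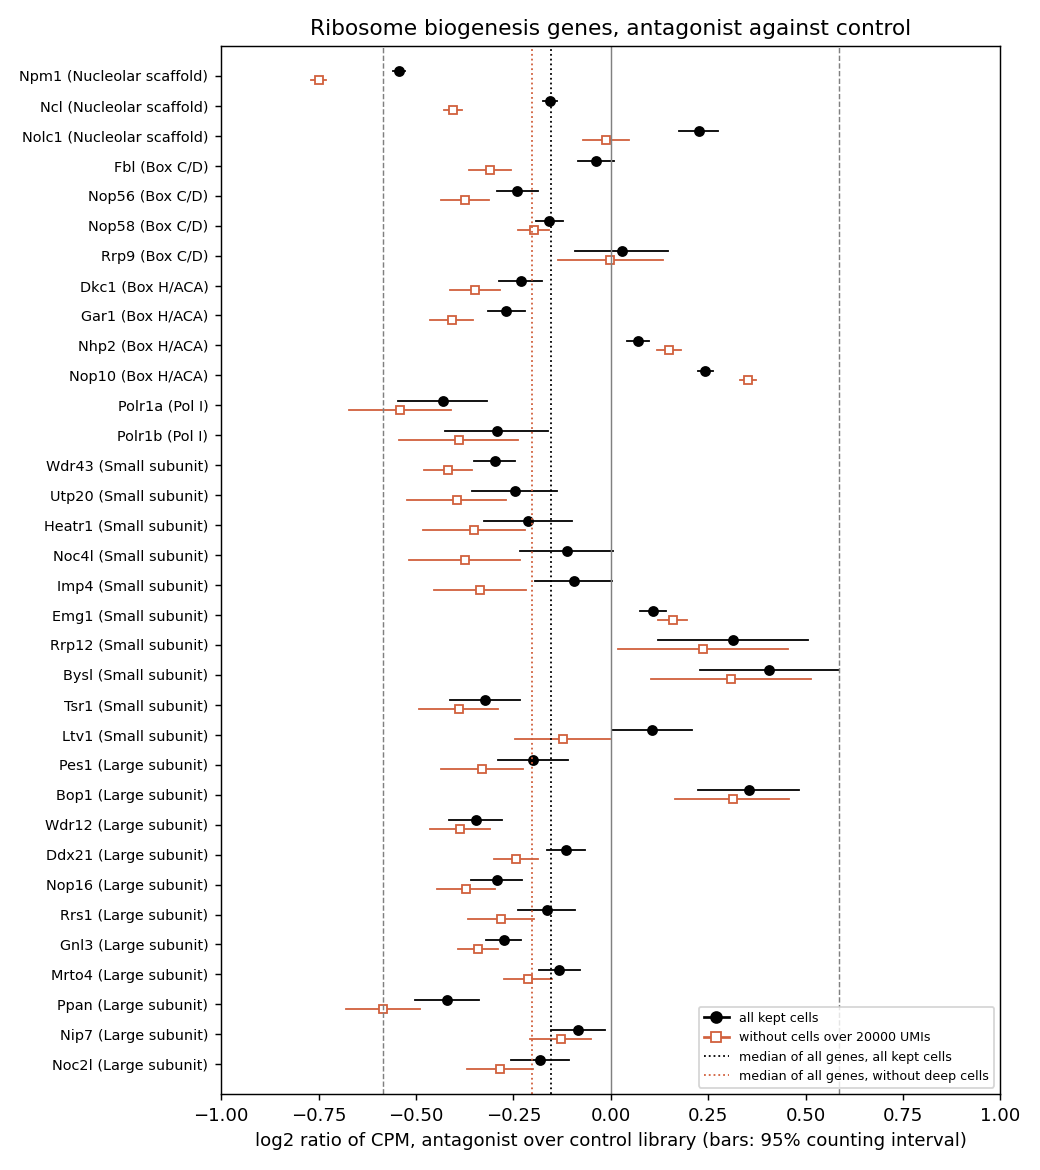
Log2 ratio of CPM, antagonist over control library, on the x axis for each of the 34 genes grouped by role. Filled circles are all kept cells and open squares are cells of at most 20000 UMIs, bars are 95% counting intervals, dotted lines are the medians of all genes (-0.15 and -0.20) and dashed lines mark 1.5-fold, and most squares lie to the left of their circles, Nop10, Nhp2 and Emg1 to the right.

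Among the scaffold proteins, Npm1 (nucleophosmin, an abundant protein of the outer nucleolus, chr11:33152287-33163206, minus strand) had the largest difference of the 34. It was at 1351 CPM (1342 to 1360) in the control and 926 CPM (918 to 935) in the antagonist library, giving a ratio of 0.686 (0.678 to 0.693). The ratio was 0.595 (0.587 to 0.602) without cells of more than 20000 UMIs. Npm1 made up 25.4% of the summed UMIs of the 34 genes in the control and 19.4% in the antagonist library. Ncl (nucleolin, which binds nascent ribosomal RNA, chr1:86344719-86359400, minus strand) stood at 831 and 746 CPM, for a ratio of 0.897 (0.886 to 0.909), and at 0.755 without the deep cells. Nolc1, a chaperone of small nucleolar particles, went from 98.5 to 115 CPM, giving a ratio of 1.17 (1.13 to 1.21), which became 0.992 (0.952 to 1.03) without the deep cells.

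In the box C/D particle, Fbl (fibrillarin, the methyltransferase) was at 135 and 131 CPM, with an interval of the ratio that included equality (0.944 to 1.005). Its scaffold partners Nop56 and Nop58 stood at 107 and 90.4 CPM and at 228 and 205 CPM, with ratios of 0.847 (0.816 to 0.878) and 0.897 (0.875 to 0.919). Rrp9, which belongs to the U3 particle, was at 19.0 and 19.3 CPM. The median over these 4 genes was -0.10 on the log2 scale.

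The 4 core proteins of the box H/ACA particle, which assemble as a unit, were split. Dkc1 (dyskerin, the pseudouridine synthase) was at 94.5 and 80.5 CPM, for a ratio of 0.852 (0.819 to 0.886), and it lies on chromosome X, on which the libraries also differed in Xist. Gar1 was at 134 and 111 CPM, giving a ratio of 0.830 (0.803 to 0.858). In contrast, Nhp2 was at 332 and 348 CPM, for a ratio of 1.05 (1.03 to 1.07), and Nop10 (chr2:112261926-112263269, plus strand) at 664 and 785 CPM, giving a ratio of 1.18 (1.168 to 1.199). Without the deep cells, the ratios of Nhp2 and Nop10 were 1.11 and 1.28 and those of Dkc1 and Gar1 0.785 and 0.754, so the split within the particle was larger. Over all cells, all 4 kept their direction under every alternative setting. In the G2 and M gate described further on, however, Dkc1, Gar1 and Nhp2 were each lower with intervals below equality. Only Nop10 was higher there (log2 ratio 0.06), and the median of the 4 was -0.26.

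Polr1a and Polr1b, the catalytic subunits of RNA polymerase I, were both lower. Polr1a went from 25.1 to 18.6 CPM, for a ratio of 0.741 (0.685 to 0.802), and Polr1b from 17.4 to 14.2 CPM, giving a ratio of 0.816 (0.744 to 0.895). Without the deep cells these ratios were 0.687 and 0.763. With the gates weighted as in the control library they were 1.07 and 1.03, so the direction turned.

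For the small subunit, 6 of 10 genes were lower and 4 higher, with a median of -0.10. Wdr43, a processome protein, was at 109 and 88.3 CPM, for a ratio of 0.814 (0.784 to 0.844), and Tsr1, a late pre-40S factor, at 38.7 and 30.9 CPM, giving a ratio of 0.7997 (0.752 to 0.851). The processome proteins Utp20 (25.5 and 21.5 CPM) and Heatr1 (23.3 and 20.1 CPM) were also lower, while the intervals of Imp4 (28.9 and 27.0 CPM) and Noc4l (20.1 and 18.6 CPM) included equality. Emg1, a methyltransferase of 18S ribosomal RNA, was higher at 235 and 253 CPM, for a ratio of 1.08 (1.05 to 1.10). Ltv1 was at 25.03 and 26.9 CPM with a ratio of 1.08 (1.003 to 1.16), and at 0.918 without the deep cells. Bysl (bystin, chr17:47599331-47611492, minus strand) and Rrp12, the members with the fewest UMIs, had ratios of 1.326 (1.172 to 1.5001) and 1.24 (1.09 to 1.42) at levels of 7.55 and 10.0 CPM and of 6.71 and 8.34 CPM.

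For the large subunit, 10 of 11 genes were lower, with a median of -0.18. Ppan, an early assembly factor, was at 48.3 and 36.1 CPM, giving a ratio of 0.747 (0.706 to 0.791), and at 0.667 without the deep cells. Pes1, Bop1 and Wdr12 form 1 complex (PeBoW), and they too were split. Wdr12 was at 68.5 and 53.9 CPM, for a ratio of 0.787 (0.751 to 0.824), and Pes1 at 36.6 and 31.9 CPM, giving a ratio of 0.871 (0.819 to 0.927). Bop1 was higher at 14.5 and 18.6 CPM, for a ratio of 1.28 (1.17 to 1.40), and was the only large subunit gene of the list in that direction. Gnl3 (nucleostemin, a nucleolar GTPase) stood at 148 and 122 CPM, giving a ratio of 0.827 (0.801 to 0.853), and Nop16 at 72.0 and 58.8 CPM, for a ratio of 0.816 (0.780 to 0.854). The others, Ddx21, Rrs1, Mrto4, Nip7 and Noc2l, had ratios from 0.882 to 0.944. Without strand information on how reads were counted, reads of several of these genes cannot be told apart from those of an overlapping gene on the opposite strand, among them Bysl with Ccnd3, Emg1 with Lpcat3, Nop56 with Idh3b, Dkc1 with Mpp1, Nhp2 with Rmnd5b, Bop1 with Mroh1 and Gnl3 with Pbrm1.

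A further 134 genes of the same processes were examined by list. Of these, 102 (76.1%, against 65.2% of all genes) were lower and 32 higher, with a median of -0.12. The lists were 47 small subunit genes (median -0.09), 50 large subunit genes (-0.16), 12 polymerase I genes (-0.24), 12 small nucleolar particle genes (-0.09) and 13 genes of ribosomal RNA degradation and the exosome (-0.08). The genes lower by 1.5-fold were Utp14a, a processome helicase cofactor (88.4 and 56.9 CPM, ratio 0.643), and Taf1b of the polymerase I initiation complex (6.68 and 3.44 CPM, ratio 0.516). They were 1.49% of the 134, against 19.3% of all genes, a share not matched for level. In each list of polymerase I genes, the one above and this one, the median was below that of all genes, with Taf1d at 249 and 182 CPM and Znrd1 at 63.6 and 71.7 CPM as examples of either direction. The 80 ribosomal protein genes measured had a median of -0.15. Of 36 genes known as Myc targets outside the nucleolus the median was -0.01, with Ldha (lactate dehydrogenase) at 274 and 485 CPM, Tfrc (the transferrin receptor) at 95.8 and 166 CPM, and Paics, of purine synthesis, at 93.9 and 56.8 CPM.

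Of 13 genes of the Myc network, 4 were lower by 1.5-fold (Myc, Mycl, Mxd4 and Mlxip) and 2 higher (Mycn and Mlx), against 19.3% and 6.5% of all genes, with a median log2 ratio of -0.42. Myc (chr15:61985391-61990374, plus strand) was at 54.0 CPM (52.2 to 55.8) and 34.7 CPM (33.2 to 36.3), giving a ratio of 0.644 (0.609 to 0.681). Mycl was at 17.4 and 10.0 CPM, for a ratio of 0.578, whereas Mycn was at 2.28 and 6.96 CPM, giving a ratio of 3.05 (2.52 to 3.71). Their dimer partner Max was at 42.2 and 39.9 CPM with an interval of the ratio from 0.894 to 1.001. Among the factors that compete with Myc for Max, Mxd4 was at 44.2 and 21.1 CPM (ratio 0.478), Mxi1 at 22.8 and 15.96 CPM (0.699), Mnt at 9.52 and 6.64 CPM (0.698) and Mxd1 at 11.5 and 16.8 CPM (1.46). Mlx, a relative of Max, was at 43.0 and 72.5 CPM, and its partners Mlxip and Mlxipl were at 55.7 and 35.4 CPM and at 61.7 and 61.1 CPM. With the gates weighted as in the control library the ratio of Myc was 0.995, that of Mycl 0.969 and that of Mnt 1.05, while Mxd4 remained at 0.546 and Mycn at 2.88. Over all cells none of the 34 ribosome biogenesis genes had a ratio as low as that of Myc. Within gates this did not hold, since Myc had ratios of 0.587 (65.9 and 38.7 CPM) in non-cycling undifferentiated and 0.757 (67.5 and 51.1 CPM) in S phase cells, where Npm1 had 0.576 and 0.665. The non-cycling gate was itself split for Myc. Its stem-marker-high cells had 69.97 CPM in the control and 93.6 CPM in the antagonist library, the latter from 230 cells. Myc was lower in the antagonist library in stem-marker-low cells (45.5 and 35.9 CPM) and in G2 and M cells (49.8 and 34.7 CPM).

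Levels by cell class were taken in marker gates, groups of cells cut on the summed share of marker genes that include none of the 34 genes. The cuts were set on the marker distributions, a gate is a range of that share and not a type, and many cells lie near a cut. Within 20% of the S phase cut there were 1605 control and 1776 antagonist cells, against 2673 and 3026 at or over it, and within 20% of the G2 and M cut 772 and 1512, against 2783 and 4161. For the stem marker cut these numbers were 1207 and 567, against 8137 and 673. A cell past both cycling cuts was placed in G2 and M, and a cell past a differentiated cut was placed in neither cycling gate. The S phase gate therefore held 1838 control and 1777 antagonist cells, and the G2 and M gate 2677 and 3920, some with S phase markers. Both libraries had low levels in mature absorptive cells and high ones in undifferentiated and cycling cells. In the control library the summed level was 6605 CPM in S phase, 5873 in non-cycling cells with many stem markers, 5852 in G2 and M, 4991 in non-cycling cells with few stem markers, 4168 in enteroendocrine, 3757 in goblet, 3423 in tuft, 1228 in enterocyte and 615 in Paneth cells. In the antagonist library the order was 6151 CPM in non-cycling cells with many stem markers, 5835 in S phase, 5185 in G2 and M, 4614 in non-cycling cells with few stem markers, 4041 in enteroendocrine, 3331 in goblet, 3036 in tuft, 2130 in Paneth and 1511 in enterocyte cells. Of neighbours in these orders, only the stem-marker-high and G2 and M gates of the control library had overlapping intervals (5841 to 5905 and 5817 to 5888). The enteroendocrine gates held 68 and 54 cells and the antagonist stem-marker-high gate 230. These sums depend on Npm1 and Ncl. Without them, the control and antagonist sums were 3880 and 3886 CPM in S phase and 3545 and 3260 CPM in G2 and M. In non-cycling cells they were 3319 and 3942 CPM with many stem markers and 3068 and 3128 CPM with few. Nop10, which went the other way, remains in these sums, at 803 and 1067 CPM in S phase. Like sums therefore do not mean like genes, and in S phase 27 of the 34 were lower in the antagonist library.

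**Figure D2:**
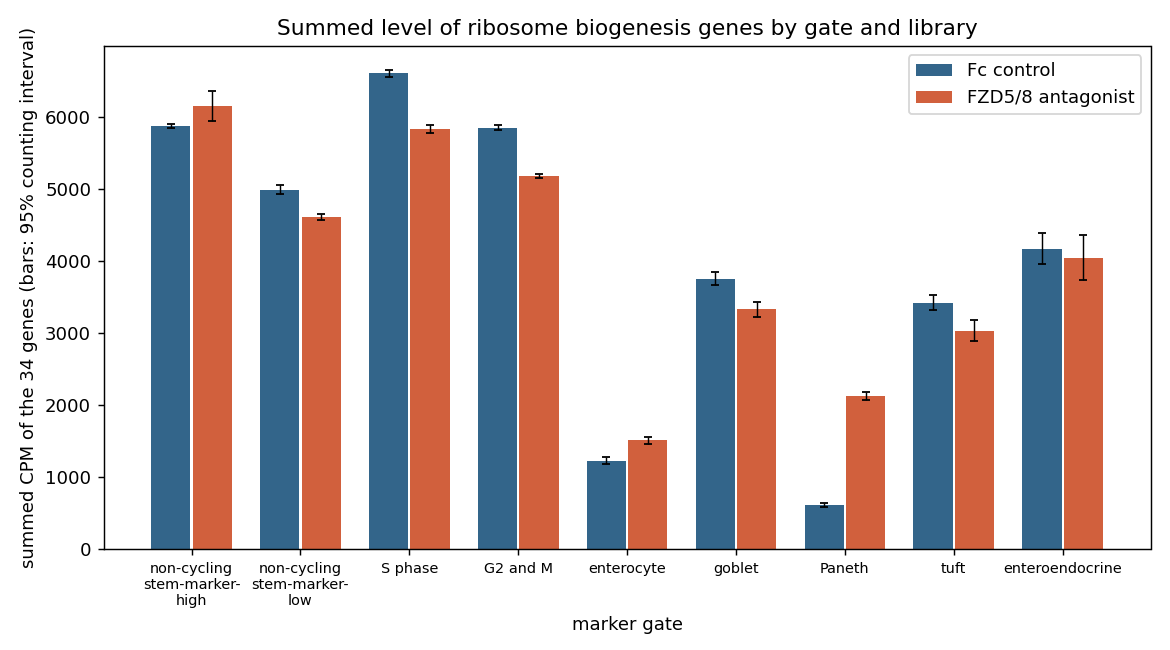
Summed CPM of the 34 genes on the y axis in each marker gate, with the Fc control library in blue and the FZD5/8 antagonist library in orange and bars for 95% counting intervals. Levels run from 615 CPM in control Paneth cells to 6605 CPM in control S phase cells, and the antagonist bar is the higher one in the stem-marker-high, enterocyte and Paneth gates.

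Within a library, among gates of at least 100 cells S phase had the highest level for 26 of the 34 genes in the control and for 12 in the antagonist library, where the stem-marker-high gate was highest for 17. The same ranking was not made for all genes. That antagonist gate held 230 cells and 545096 UMIs, so a highest level there can rest on few UMIs, as for Bop1 at 23.8 CPM. In the control, 32 of 34 were higher in S phase than in all non-cycling undifferentiated cells, as were 5968 of 12222 genes measured. The median log2 ratio of the 34 was 0.20 against -0.01 for all genes. By 1.5-fold, 3 of the 34 were higher, against 6.75% of all genes. In the antagonist library 33 of 34 were higher in S phase, as were 6478 of 11095 genes measured, with a median of 0.30 against 0.06 for all genes. G2 and M cells differed less from the non-cycling cells, with medians of 0.06 in the control and 0.20 in the antagonist library. In control enterocytes, by contrast, all 34 were lower than in the non-cycling cells, as were 8460 of 11976 genes measured. Their median was -2.16 on the log2 scale against -0.64 for all genes, and 32 of the 34 were lower by 1.5-fold against 52.2% of all genes. The antagonist library had all 34 lower in enterocytes, and 7124 of 10817 genes measured, with medians of -1.65 and -0.37. Npm1 was at 1569 CPM in control non-cycling and 235 CPM in control enterocytes, and Nop10, which differed less, at 687 and 238 CPM. In the Paneth gate nearly all genes were lower than in the non-cycling cells, not the 34 alone. In the control these were 11607 of 11868 genes measured, with medians of -3.02 for the 34 and -2.60 for all genes. In the antagonist library they were 10316 of 10727, with medians of -1.047 and -1.045. Per cell, thinned to 3000 UMIs, the median number of UMIs of the 34 genes was 20 in S phase, 17 in stem-marker-high cells and 2 in enterocytes of the control library.

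Non-cycling undifferentiated cells as a whole had a lower summed level in the antagonist library, 4688 CPM against 5726 CPM. Most of this gap lay in Npm1 and Ncl, without which the sums were 3167 and 3277 CPM. Those sums still include Nop10, which was higher in the antagonist library. The median log2 ratio of the 34 genes was -0.34 against -0.22 for all genes, and 27 of 34 were lower, against 66.7% of all genes. By 1.5-fold, 2 of the 34 were lower, against 23.7% of all genes. These were Npm1, at 1569 and 904 CPM (ratio 0.576, 0.564 to 0.589), and Polr1b, at 18.3 and 12.0 CPM (0.652, 0.535 to 0.791). Ncl was at 880 and 617 CPM (0.701), Nop10 at 687 and 874 CPM (1.27) and Bop1 at 14.0 and 19.5 CPM (1.39). The make-up of this gate differed, however, with a median stem marker share of 59.8 per 10000 UMIs in the control and 8.70 in the antagonist cells. When 6 steps of that share were weighted as in the control library, the median log2 ratio of the 34 genes was 0.14, with all genes at -0.08, so the direction turned. The steps from 50 upward hold 64.1% of the control cells of this gate but 81 antagonist cells. With the 4 steps under 50 only, the weighted median was 0.08, with all genes at -0.01.

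The steps themselves did not all go in the same direction. In the control library the summed level was 3373 CPM in cells with fewer than 10 stem marker UMIs per 10000, 5256 at 10 to 20, 5765 at 20 to 30, 5923 at 30 to 50, 5938 at 50 to 70 and 5775 at 70 and over. The antagonist library had 4295, 5094, 5979, 6093, 6481 and 6094 CPM in the same steps. It was above the control in the lowest step, where the control had 145 cells, and in each step from 20 upward. At 10 to 20 it was below the control, with overlapping intervals (5014 to 5175 and 5139 to 5375). The intervals also overlapped at 20 to 30, 30 to 50, 50 to 70 and 70 and over, where 238, 149, 39 and 42 antagonist cells remained. In both libraries the level was higher at each of the first 3 steps than at the one before, and from 20 upward it lay between 5765 and 5938 CPM in the control and between 5979 and 6481 CPM in the antagonist library. Over the same steps Myc went from 26.6 to 77.3 CPM in the control and from 31.3 to 174 CPM in the antagonist library, the last from 17 UMIs. The stem markers include genes of the Wnt response, so cells matched on this share are not matched on stem cell identity.

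**Figure D3:**
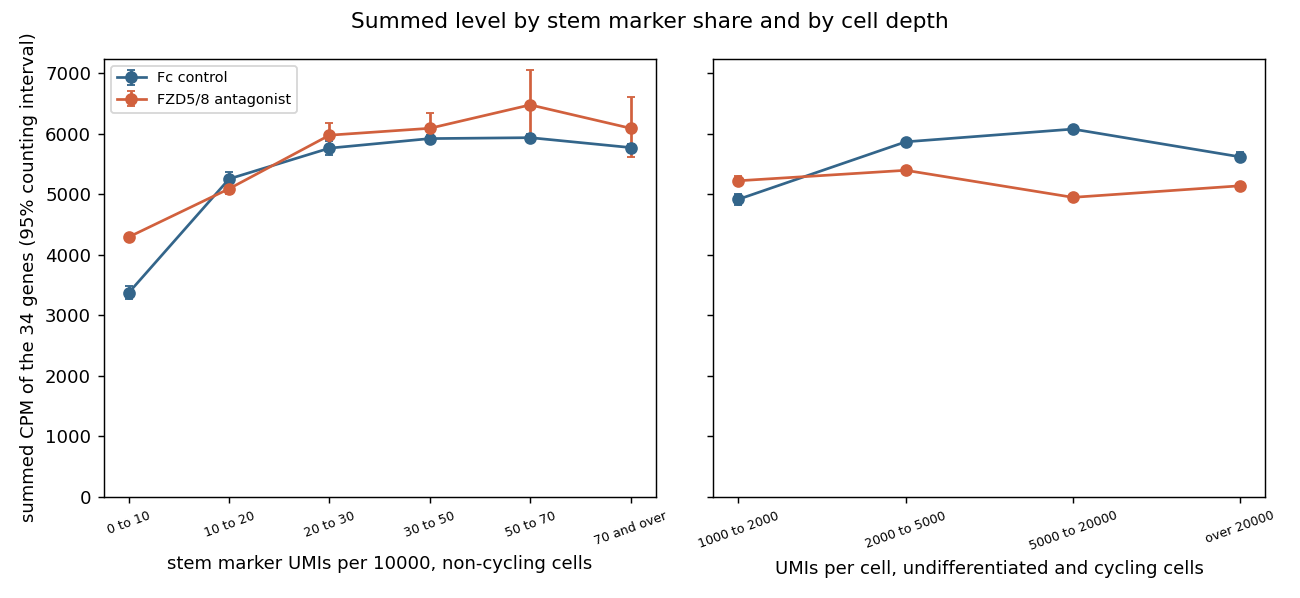
Summed CPM of the 34 genes on the y axis, in non-cycling cells by stem marker UMIs per 10000 (left) and in undifferentiated and cycling cells by UMIs per cell (right), with 95% counting intervals. Both libraries climb with the stem marker share up to 20 to 30, and by depth the control lies below the antagonist library at 1000 to 2000 UMIs (4919 and 5225 CPM) and above it in the 3 deeper ranges.

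Among non-cycling cells with many stem markers, 230 antagonist cells stood against 4572 in the control. The median stem marker share was 43.4 against 65.0 per 10000. Of the 34 genes, 23 were higher in the antagonist library, against 51.2% of all genes, with a median of 0.14 against 0.02 for all genes. By 1.5-fold, 5 of the 34 were higher, against 15.5% of all genes. They were Bysl (6 antagonist UMIs), Bop1 (13 UMIs), Polr1a (28.2 and 45.9 CPM), Nolc1 (93.7 and 141 CPM, ratio 1.51, 1.19 to 1.89) and Nop10 (681 and 1027 CPM, ratio 1.51, 1.38 to 1.64). Noc4l was the 1 gene lower by that fold, from 6 antagonist UMIs (18.8 and 11.0 CPM, ratio 0.587, 0.214 to 1.29), against 17.1% of all genes. Npm1 remained lower there, at 1637 and 1277 CPM (0.780, 0.723 to 0.841). Lgr5 was at 106 and 27.5 CPM in this gate. In non-cycling cells with few stem markers the median was -0.09 against -0.07 for all genes, and Npm1 was at 1227 and 885 CPM.

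In S phase the median was -0.21 against -0.15 for all genes, with 27 of 34 genes lower, against 65.5% of all genes. Npm1 (1705 and 1133 CPM, ratio 0.665) was the 1 gene of the 34 lower by 1.5-fold, against 15.9% of all genes. Nop10 was higher in S phase, at 803 and 1067 CPM (1.33, 1.29 to 1.37). In G2 and M the median was -0.16 against -0.17 for all genes, none of the 34 was lower by 1.5-fold against 17.2% of all genes, and Rrp12 (6.29 and 9.68 CPM) was the 1 gene higher by that fold, against 8.75%. Npm1 was at 1351 and 1031 CPM there, Polr1a at 28.5 and 20.02 CPM and Ncl at 956 and 894 CPM. Npm1 was thus lower in every undifferentiated and cycling gate, with ratios from 0.576 to 0.780, whether the gate's median was above or below that of all genes.

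Differentiated gates differed among themselves. In goblet cells (218 and 297) the median was -0.25 against -0.06 for all genes, with 27 of 34 genes lower, against 55.9% of all genes. By 1.5-fold, 7 of the 34 were lower, against 11.3% of all genes. Wdr43 was at 87.7 and 49.3 CPM (0.563, 0.411 to 0.761), Gar1 at 101 and 59.4 CPM (0.587, 0.441 to 0.774), Nop16 at 60.7 and 36.8 CPM (0.606, 0.418 to 0.864) and Wdr12 at 42.5 and 26.8 CPM (0.629, 0.404 to 0.957). The remaining genes past that fold were Polr1a, Noc4l and Ppan, whose intervals included equality. Nop10 was higher in goblet cells as well, at 592 and 778 CPM. In enterocytes (191 and 460 cells), where 31 of the 34 genes reached 20 UMIs, the median was 0.22 against 0.01, and 4 genes were higher by 1.5-fold against 8.45% of all genes, among them Nop58 at 38.2 and 72.5 CPM (1.90, 1.44 to 2.53) and Gnl3 at 24.6 and 40.3 CPM. Ltv1 was the 1 gene lower by that fold (ratio 0.541, 0.312 to 0.919), against 7.13%. The enterocyte gates were not alike, with a median enterocyte marker share of 793 per 10000 in the control and 589 in the antagonist library and with 45 and 177 cells within 20% of the cut. The Paneth gate held 124 control and 434 antagonist cells that differed across all genes, with a median of 1.45 over all genes and 1.72 over the 33 members measured, 86.8% of all genes higher by 1.5-fold, and ribosomal proteins at 2.42% and 8.15% of UMIs.

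**Figure D4:**
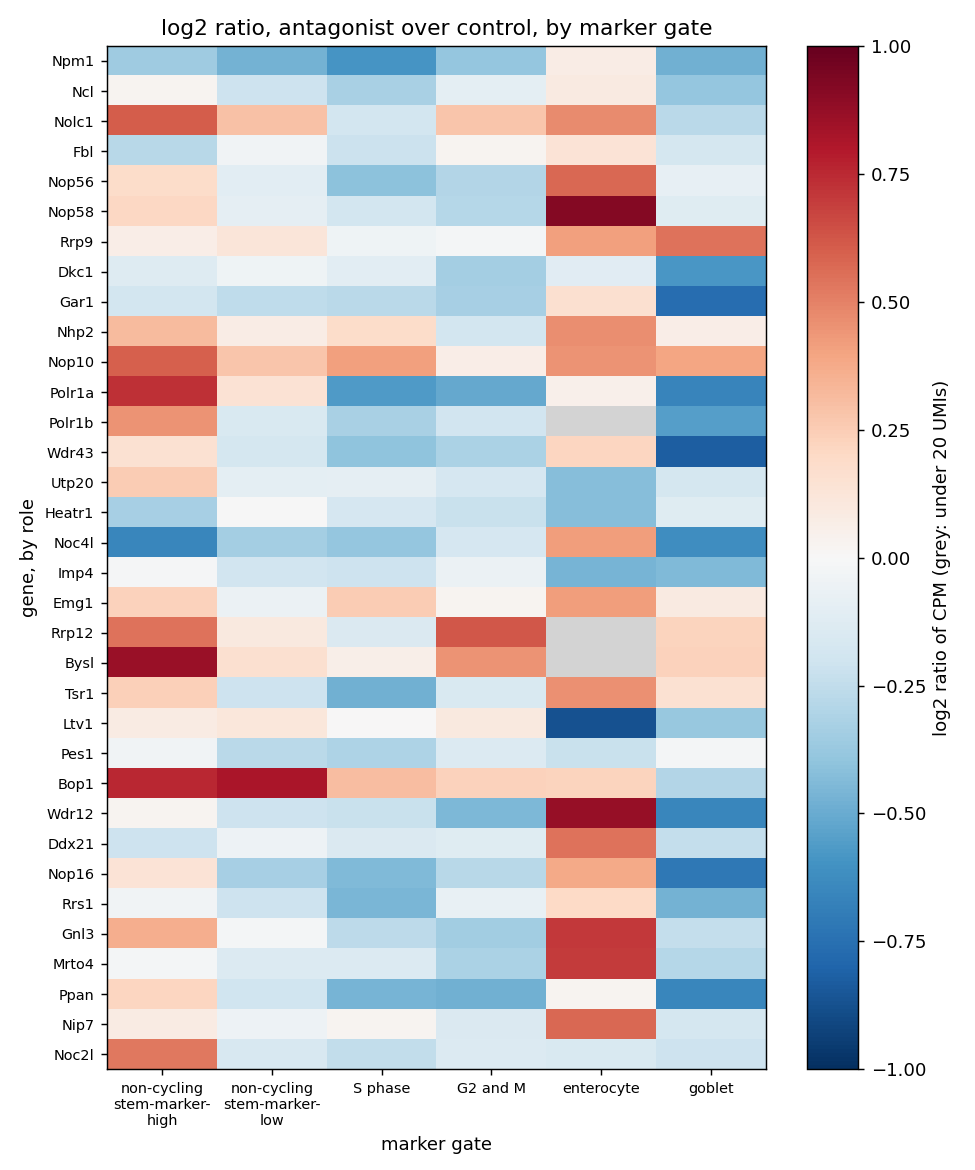
Log2 ratio of CPM, antagonist over control, for each of the 34 genes (rows, by role) in 6 marker gates (columns), from blue (lower) to red (higher), with grey for genes under 20 UMIs. The Npm1 row is blue in all gates but the enterocyte gate, the Nop10 row is red in all 6, and the stem-marker-high and enterocyte columns hold more red than the S phase, G2 and M and goblet columns.

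The relation to Myc was read in undifferentiated and cycling cells thinned to 3000 UMIs each, since a deeper cell is more likely to show a Myc UMI. After thinning, Myc was detected in 16.8% (15.9 to 17.7) of 6803 control cells and in 9.85% (8.97 to 10.8) of 4286 antagonist cells, leaving out 2998 and 4019 shallower cells. Unthinned shares were 26.3% and 15.2%, at median depths of 4610 and 3090 UMIs. In enterocytes the thinned shares were 1.19% (2 of 168 cells) and 0.369% (1 of 271), at unthinned median depths of 7744 and 3691 UMIs. They were 6.93% and 7.41% in goblet and 4.76% and 7.14% in Paneth cells. The level of free RNA was not measured. In control cells, 28 of 34 genes were higher in the 1142 cells with Myc than in the 5661 without, with a median log2 ratio of 0.13 against 0.06 for all genes. Rrp12 was the 1 gene higher by 1.5-fold (6.89 and 12.3 CPM, ratio 1.78, 1.22 to 2.55), against 4.33% of all genes. In antagonist cells, 29 of 34 were higher in the 422 cells with Myc than in the 3864 without, with a median of 0.19 against 0.08, and 2 were higher by 1.5-fold, Rrp12 and Bysl, against 9.2% of all genes.

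Of all genes, 60.9% were higher in cells with Myc in the control and 60.7% in the antagonist library, against 82.4% and 85.3% of the 34. In both libraries 25 of the 34 genes (73.5%) were higher in cells with Myc, against 40.5% of all genes, and 2, Nop10 and Emg1, were lower in both (5.88% against 18.6%). Ncl was at 951 and 1044 CPM without and with Myc in the control (ratio 1.10, 1.06 to 1.14) and at 707 and 885 CPM in the antagonist library (1.25, 1.18 to 1.33). Npm1 was at 1554 and 1637 CPM (1.05, 1.02 to 1.08) and at 958 and 1109 CPM (1.16, 1.09 to 1.22). Fbl had ratios of 1.13 (1.03 to 1.24) and 1.26 (1.08 to 1.47), Nop56 of 1.12 and 1.22, and Nolc1 of 1.15 and 1.24. Intervals lay wholly above equality for 13 genes (38.2%, all genes 8.31%) in the control and 7 (20.6%, all genes 5.59%) in the antagonist library. They lay wholly below it for 2, Nhp2 (0.928, 0.872 to 0.987) and Emg1 (0.905, 0.839 to 0.974), in the control, against 5.30% of all genes, and for 0 of the 34 in the antagonist library, against 2.99%. These shares are not matched for level, and an interval clears equality more readily for genes with many UMIs, such as Npm1 and Ncl. By the number of Myc UMIs, the summed level of the 34 genes was 5988, 6246, 6552 and 6183 CPM at 0, 1, 2 and 3 or more in the control, the last from 20 cells with an interval of 5570 to 6846. It was 5152, 5674 and 6258 CPM at 0, 1 and 2 in the antagonist library. Summed over the 34 genes, cells with Myc in the antagonist library thus held less than cells without it in the control (5717 and 5988 CPM). Npm1 alone differed by more than this sum, at 1109 and 1554 CPM, so the remaining genes together were higher. Among these, Nop10 was at 961 and 730 CPM and Ncl at 885 and 951 CPM.

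**Figure D5:**
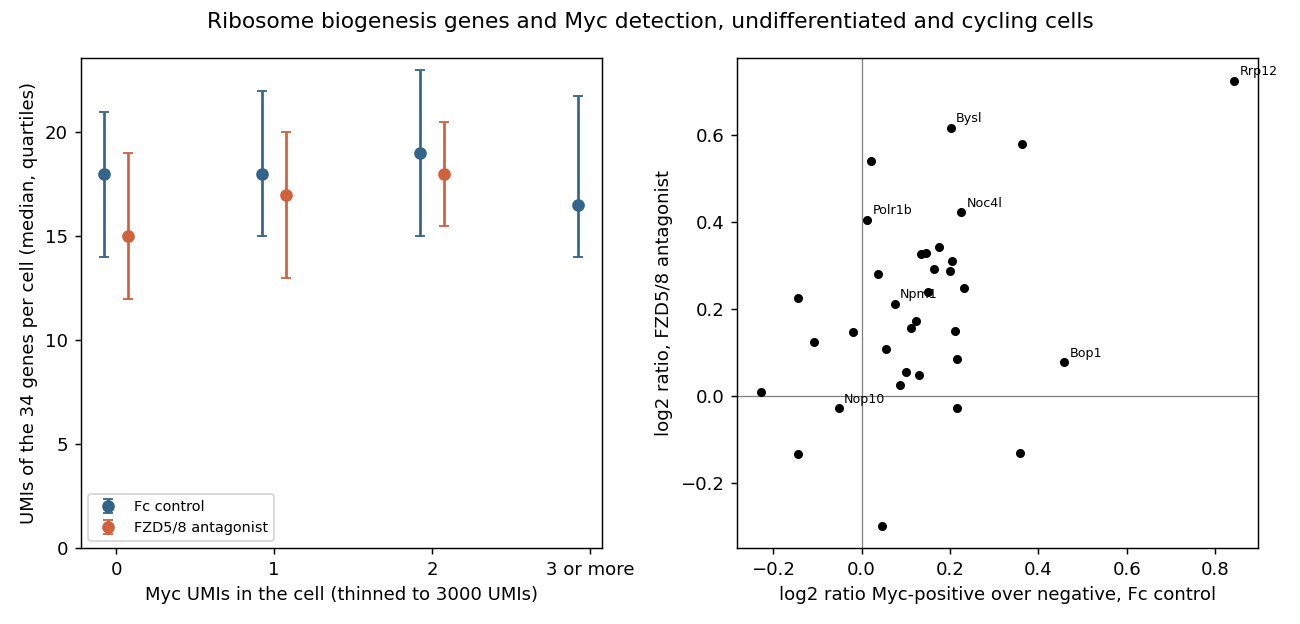
Left, UMIs of the 34 genes per cell thinned to 3000 UMIs (median with quartiles) by the number of Myc UMIs, with 18, 18, 19 and 16.5 in the control and 15, 17 and 18 in the antagonist library. Right, the log2 ratio of cells with Myc to cells without it for each gene, in the control on the x axis and in the antagonist library on the y axis, with most points right of and above 0 and Rrp12 farthest out.

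Other features moved with Myc detection as well. In the control library 23.9% of cells with Myc and 29.2% of those without were in the G2 and M gate, and 22.9% and 19.7% in the S phase gate. The median over stem markers was 0.17 in the control, with 13 of 14 higher, and 0.50 in the antagonist library, over S phase markers 0.16 and 0.23, and over G2 and M markers -0.20 and -0.07. Their part in the result was not tested. Within single gates the median of the 34 genes was 0.11 in non-cycling, 0.12 in S phase and 0.08 in G2 and M cells of the control, with all genes at 0.06, 0.06 and 0.08, and 0.18, 0.20 and 0.20 in the antagonist library, with all genes at 0.06, 0.10 and 0.10. The same split by other genes of the Wnt response in control cells gave medians of 0.13 for Ccnd1 (all genes 0.05), 0.08 for Axin2 (0.11), 0.06 for Cd44 (0.06) and -0.00 for Sox9 (0.03), so the split by Ccnd1, a cyclin of the G1 phase, was as large as that by Myc. In antagonist cells the medians were 0.15 for Ccnd1 (all genes 0.06), 0.14 for Axin2 (0.09), 0.16 for Cd44 (0.09) and 0.08 for Sox9 (0.02), so there the members lay above all genes in each of these splits, as in that by Myc. Ribosomal protein genes had a median of -0.03 in the control split by Myc.

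Of the 6 genes with the E-box in the promoter window, 5 were lower in the antagonist library, with a median log2 ratio of -0.22 and a range from -0.32 (Tsr1) to 0.11 (Ltv1), against a median of -0.16 over the 23 genes whose window lacked it. Their median ratio of cells with Myc to cells without it was 0.05 in the control and 0.10 in the antagonist library, and that of the 23 others 0.13 and 0.24.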

How the data were processed

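UMI counts per gene and cell barcode, not normalized, were used as deposited. The submitters' processing notes name Cell Ranger and the build GRCm38, also called mm10, and the software version is 3.1.0, per the file headers. The annotation release, the use of strand and the choice of barcodes are unknown here. Cells were kept if they had 500 genes or more and no more than 20% mitochondrial UMIs. Doublets were not removed, and no doublet caller was run.

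UMIs were summed per library, or per gate, and divided by its total to give CPM. Intervals are exact and cover 95%, from the Poisson distribution for a level, from the binomial split of the UMIs between libraries for a ratio, and by the Clopper-Pearson method for a share of cells. Log2 ratios had 0.5 added to each sum, and called genes were past 1.5-fold. No division by gene length was made, since 3' UMIs count transcripts.

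Gates were cut on marker UMIs per 10000 (Paneth 1000, goblet 300, enterocyte 200, tuft 30, enteroendocrine 30, G2 and M 25, S phase 15, many stem markers 30), with at least 3 marker UMIs. These cuts were set after the marker distributions were seen. Cells under 1000 UMIs (542 control, 1199 antagonist) and cells past several differentiated cuts (100 and 75) were left out of the gates. For Myc, each cell was thinned to 3000 UMIs.

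The 34 genes, the other gene lists and the alternatives were chosen with earlier results of these data known. All members were accounted for and named with values where a library reached 20 CPM, and from each further list the highest and lowest ratios at that level were candidates for naming. Members below that level, Taf1b and Mlx with its partners were named after their values were seen. The counting steps were tested on simulated data. Promoter sequences are from RefSeq (GRCm38.p6) and gene positions from GENCODE on GRCm38. Python 3.11.15, numpy 2.4.6, scipy 1.17.1 and pandas 2.3.3 were used.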

Additional observations from a re-analysis of the deposited data

Results flagged for a closer look

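In the split by marker gate, 7 genes were lower by 1.5-fold in the antagonist library in at least 1 gate of 100 cells or more and higher by that fold in the Paneth gate, each with a counting interval on its side of equality. The gate given is the one with the lowest ratio. The differences between gates were not tested. In tuft cells Npm1 had a log2 ratio of -0.80 and Heatr1 of -1.78, against 1.47 and 1.62 in the Paneth gate. The Heatr1 value rests on very few UMIs, 3.68 CPM in a gate of 543225 antagonist UMIs. The interval of its ratio ran from 0.027 to 0.975. Npm1 was also lower, with an interval below equality, in other gates, among them S phase (-0.59), goblet (-0.48) and enteroendocrine cells (-0.48). In goblet cells the log2 ratio was -0.71 for Nop16, -0.76 for Gar1, -0.82 for Wdr43 and -0.66 for Wdr12, against 1.88, 1.72, 0.83 and 1.36 in the Paneth gate. In enterocytes Ltv1 had -0.87, against 2.42 in the Paneth gate. All 7 rest on the Paneth gate, in which the median over all genes measured was 1.45 and 86.8% of them were higher by 1.5-fold. Of all genes, 13.8% were lower by that fold in tuft, 11.3% in goblet and 7.13% in enterocyte cells. How many of all genes met both conditions was not counted, so the 7 cannot be set against a share.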

How the results depend on the processing

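No paired analysis was possible because each condition has 1 library and the labels give no replicate numbers. Over all cells the median log2 ratio of the 34 genes stayed at or below 0 under all 11 alternatives, from -0.33 to -0.0082. It was -0.0082 when centred on the median of all genes (a shift of 0.15), -0.32 with each cell thinned to 3000 UMIs, -0.057 with the gates weighted as in the control, and, under settings chosen after seeing the data, -0.28 without shared barcodes and -0.33 without cells over 20000 UMIs. The number of members lower by 1.5-fold, 0 in the report, was 1 with totals free of mitochondrial and ribosomal protein genes, without differentiated gates, without shared barcodes or without cells over 20000 UMIs, and 2 with thinned or equally weighted cells. In non-cycling cells the median was -0.12 when centred and 0.14 with the stem marker steps weighted as in the control or 0.080 with the steps under 50 only, both chosen after seeing the data. In G2 and M cells it was 0.0086 when centred. In antagonist cells with at least 2 Myc UMIs (31 cells) the median ratio was 0.56. The causes of these shifts were not tested. The other 61 values for these comparisons lay within the median of the members' counting intervals or, for the count, stayed at 0. Depth limits Bysl, Rrp12, Bop1, Rrp9 and Polr1b, which had under 20 CPM in both libraries, and the small gates.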
